A study of Mus musculus with 18 samples.

Results

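The guanylate-binding proteins and the immunity-related GTPases are large GTPases that cells make in response to interferon. Guanylate-binding proteins (the Gbp genes) gather on the vacuoles of intracellular bacteria and parasites and can open them to the cytosol. Among the immunity-related GTPases, the effectors Tgtp1 and Iigp1 coat these vacuoles, while the regulators Irgm1, Irgm2 and Igtp (also called Irgm3) sit on the membranes of the cell itself and restrain the effectors there. In kidney tubular epithelium both groups are known as part of the cell-autonomous defence that interferon-gamma turns on.

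The family was represented by 10 genes chosen by symbol, Gbp2, Gbp3, Gbp7, Gbp8, Gbp9, Igtp, Irgm1, Irgm2, Iigp1 and Tgtp1. The list was set with earlier results of these data known, and applies no threshold to a measured value. All 10 had a row among the 36528 genes of the deposited tables. Of these, 8 had more than 10 reads in at least 4 of the 18 samples and entered the tests, beside 15521 genes tested in all. Gbp3, with 84 reads over all samples, and Iigp1, with 5 reads, did not.

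RNA-seq was run on primary renal tubular epithelial cells (RPTEC) of C57BL/6 mice, a commercial culture. Cells received vehicle (DMSO), 100 ng/mL recombinant mouse TWEAK, a TNF family cytokine that acts through the receptor Fn14 on both branches of NF-κB, or the same TWEAK with 3 µM NIK SMI1, a small molecule inhibitor of the kinase NIK. NIK drives the non-canonical branch of NF-κB. RNA was collected at 6 h and at 24 h, which gives 6 groups of 3 samples. No group received NIK SMI1 alone, so its effect was measured only in cells that also had TWEAK. The labels name no separate animals or cell batches, and p-values therefore measure only the spread between cultured samples, which may be technical. Replicate numbers were given in deposit order and serve as names.

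Libraries held 18040966 to 51956444 reads in genes. A count of 3 reads corresponds to 0.0577 to 0.166 CPM (a count scaled to a library of 1000000 reads), which is the level that a gene with no reads could still have, by counting error only. Of 13 renal tubule markers, 12 passed 10 reads in some sample, and their summed level was 7465 to 9428 CPM, but the proximal tubule transporter gene Slc34a1 never passed 1 read and Aqp1 never passed 18. The tubule sum was lower in every TWEAK sample than in vehicle, at 8514 to 8849 against 9021 to 9428 CPM at 6 h and 7465 to 7537 against 7925 to 8047 CPM at 24 h, and was 7993 to 8016 CPM with NIK SMI1 at 24 h. At 24 h, 8 of the 11 tested tubule markers were called lower with TWEAK and 2 higher, where 20.7% and 18.3% of all genes tested were. When NIK SMI1 was added, 6 were called higher and 1 lower, where 10.2% and 8.29% of all genes were. Leukocyte markers summed to 18.5 to 26.0 CPM over all samples, with Cd3e and Tyrobp at 0 reads and Ptprc at 11 reads or fewer. Their sum was highest in the TWEAK group at 24 h, at 24.3 to 26.0 CPM against 21.2 to 22.3 in vehicle and 19.8 to 21.1 with NIK SMI1. Endothelial markers summed to 0.195 to 0.813 CPM, with 0.573 to 0.813 CPM under TWEAK at 24 h against 0.195 to 0.507 in vehicle, and the 1 tested marker was called higher there. Fibroblast markers summed to 9.44 to 13.7 CPM, with 9.48 to 11.03 CPM under TWEAK at 6 h against 12.1 to 13.7 in vehicle, and 1 of the 2 tested was called lower there. The part of these markers in the results was not tested. Transcripts of pancreatic islet genes set libraries apart. Their sum was 14.3 to 29.0 CPM in every sample of the 3 groups at 6 h and of vehicle at 24 h, but 13.2, 0.214 and 4.18 CPM in the TWEAK samples at 24 h and at most 0.087 CPM with NIK SMI1 at 24 h. The part of these transcripts in the results at 24 h was not tested directly. Calls among the 10 chosen genes that rest on TWEAK at 24 h are therefore given also with that group reduced to 1 replicate. This was replicate 1, near the other groups in islet transcripts, or replicate 2, near the NIK SMI1 group. No such values are given for genes outside the 10. In whole cultures, fewer cells that make a transcript and less RNA per cell cannot be told apart.

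The promoters of the 7 members with a sequence window carry a common letter pattern of the interferon system. RefSeq windows of GRCm38.p6, running from 250 bases before to 50 bases after each start, existed for 7 of the 10 genes, in 8 windows. Gbp8, Gbp9 and Iigp1 had none. The core of the interferon-stimulated response element was searched as GAAANNGAAA on both strands. It occurred in 7 of the 8 windows, which covered all 7 genes, against 3.44% of all 32851 windows. The stretches around the match are shown for these 7 genes. Capitals mark the 10 bases of the match nearest to the start among those that lie before it. The stretches of Gbp3 and Irgm1 each hold a further match, partly in lower case, that overlaps the marked bases. All stretches lie before the start and run 5′ to 3′ on the strand of the gene.
Gbp2: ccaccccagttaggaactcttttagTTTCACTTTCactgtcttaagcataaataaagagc
Gbp3: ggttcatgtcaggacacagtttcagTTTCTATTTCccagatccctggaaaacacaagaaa
Gbp7: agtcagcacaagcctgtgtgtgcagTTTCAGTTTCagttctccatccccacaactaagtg
Irgm1: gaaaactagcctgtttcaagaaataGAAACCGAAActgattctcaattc
Irgm2: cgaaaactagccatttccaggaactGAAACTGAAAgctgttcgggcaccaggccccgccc
Igtp: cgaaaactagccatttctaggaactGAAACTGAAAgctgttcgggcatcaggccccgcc
Tgtp1: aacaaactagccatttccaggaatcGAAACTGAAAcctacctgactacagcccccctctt

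The Gbp stretches lie on the plus strand at chr3:142620579-142620638 (Gbp2), chr3:142559980-142560039 (Gbp3) and chr3:142530258-142530317 (Gbp7), and carry the element in its reverse reading. Those of the immunity-related GTPases lie on chromosome 11, at chr11:48871421-48871469 (Irgm1, minus strand), chr11:58214888-58214947 (Irgm2, plus strand), chr11:58199497-58199555 (Igtp, plus strand) and chr11:48992289-48992348 (Tgtp1, minus strand), and carry it in its forward reading. The marked matches began 24 bases (Irgm1) to 77 bases (Tgtp1) before the start. The interferon-gamma activated sequence, searched as TTCNNNGAA, occurred in 4 of the 8 windows, from 4 genes (Gbp7, Igtp, Irgm2 and Tgtp1), against 8.3% of all windows. A match to the NF-κB consensus occurred in 1 of the 8 windows, from Gbp2, against 8.46% of all windows. A match is a description of letters in these windows and not a measured binding site.

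Levels per transcript length, as RPKM (reads per kilobase of exon scaled to library size, as deposited), spanned a wide range. Irgm1 stood far above the rest, with a mean of 60.7 RPKM over the 18 samples and between 85.5% and 89.1% of the summed RPKM of the 10 genes in each sample. Irgm2 and Igtp followed at 3.22 and 3.15 RPKM. These neighbours did not separate, since Irgm2 was the higher of the pair in 11 of 18 samples. Gbp9, at 0.85 RPKM, had the highest mean of the guanylate-binding genes over all samples, but with TWEAK at 24 h Gbp8 came level with it, at 0.988 ± 0.0371 against 1.01 ± 0.0844 RPKM (SD, n = 3). Gbp8 (0.38 RPKM) and Gbp2 (0.35 RPKM) changed places with the treatment. In all 3 TWEAK samples at 24 h Gbp8 was the higher (means of 0.988 and 0.447 RPKM), in all 3 vehicle samples at 24 h Gbp2 was (0.334 and 0.521 RPKM), and over all groups Gbp8 was the higher in 7 of 18 samples. Tgtp1 (0.243 RPKM), Gbp7 (0.171 RPKM), Gbp3 (0.0379 RPKM) and Iigp1 (0.00189 RPKM) closed the order. The regulators of the Irgm group thus held the first places and the effectors Tgtp1 and Iigp1 low ones.

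**Figure D1:**
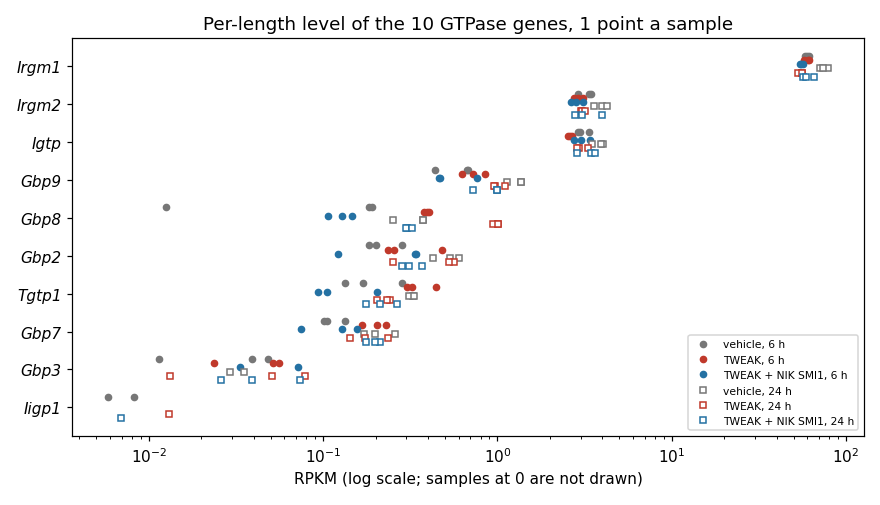
RPKM of the 10 GTPase genes on a log axis, 1 point for each of the 18 samples (samples at 0 are not drawn), with colour for the treatment and filled or open symbols for 6 h or 24 h. Irgm1 lies between 53.2 and 78.2 RPKM, while Gbp8 spreads from 0.0126 to 1.01 RPKM, with the TWEAK samples at 24 h at its upper end.

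Of the tested members, only Gbp8 was called for TWEAK and for NIK SMI1 at both times. It encodes a guanylate-binding protein. At 6 h it stood at 0.0324, 0.481 and 0.5 CPM in vehicle, at 1.03, 0.994 and 1.06 CPM with TWEAK, and at 0.334, 0.28 and 0.388 CPM with TWEAK and NIK SMI1. At 24 h the levels were 0.982, 0.659 and 0.976 CPM in vehicle, 2.64, 2.48 and 2.63 CPM with TWEAK, and 0.79, 0.783 and 0.845 CPM when the inhibitor was added. Every TWEAK sample lay above every sample of the other groups at the same time.

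TWEAK raised Gbp8 by 1.49 ± 0.32 on the log2 scale at 6 h (SE, n = 3 in each group, adjusted p = 0.000893, edgeR quasi-likelihood test with Benjamini-Hochberg adjustment over all genes tested) and by 1.52 ± 0.27 at 24 h (edgeR adjusted p = 5.38e-05). These are 2.81-fold and 2.88-fold higher levels. Adding NIK SMI1 lowered it against TWEAK alone, with log2 changes of -1.63 ± 0.37 at 6 h (edgeR adjusted p = 0.00325) and -1.68 ± 0.26 at 24 h (edgeR adjusted p = 2.2e-05). The TWEAK samples are shared by the rise and by the fall, which are therefore not independent of each other. Against vehicle, cells with TWEAK and NIK SMI1 showed a Gbp8 difference of -0.14 ± 0.44 on the log2 scale at 6 h, with 2 standard errors reaching from -1.02 to 0.73, and of -0.16 ± 0.32 at 24 h, reaching from -0.79 to 0.47. Neither passed the threshold (edgeR adjusted p = 0.882 and 0.809), and at these depths intervals of this width do not show equality with vehicle. Of 363 genes that TWEAK raised over 2-fold at 24 h, 206 (56.7%) were more than 1.5-fold lower with NIK SMI1 at an adjusted p under 0.05, and 70 of these (34%) did not differ from vehicle by the test.

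The counts behind Gbp8 were small, from 1 to 116 reads a sample, and its first vehicle sample at 6 h held 1 read against 18 and 26 in the other two. Without that sample the rise at 6 h was 1.08 (edgeR adjusted p = 0.00199). With TWEAK at 24 h reduced to its replicate 1 or replicate 2, the rise at 24 h was 1.56 or 1.46 and the fall with the inhibitor was -1.72 or -1.62, all past the threshold. Among the other guanylate-binding genes tested, none passed the threshold both for TWEAK and for NIK SMI1.

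Considering all members at 6 h, TWEAK raised 3 of the 8 tested genes (Gbp7, Gbp8 and Tgtp1), where 11.7% of all genes tested rose. It lowered none by edgeR or by DESeq2, where 12% of all genes fell, and 1 had an unadjusted p under 0.05 in that direction (Igtp). The median log2 change was 0.39 over the 8 genes and -0.0034 over all genes tested.

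Tgtp1, an effector GTPase first described in T cells, stood at 0.389, 0.828 and 0.5 CPM in vehicle at 6 h, at 0.948, 0.895 and 1.29 CPM with TWEAK, and at 0.306, 0.599 and 0.277 CPM with TWEAK and NIK SMI1. The TWEAK samples overlapped neither other group. The rise with TWEAK was 0.87 ± 0.28 on the log2 scale (edgeR adjusted p = 0.0232) and the change with the inhibitor was -1.40 ± 0.33 (edgeR adjusted p = 0.00445). The rise rested on few reads, 5 to 49 a sample in all groups, and lost the threshold without vehicle replicate 1 or 3 or TWEAK replicate 3 at 6 h, with adjusted p of 0.1 to 0.131, and when only the groups compared were fitted (edgeR adjusted p = 0.0565), while the fall lost it without NIK SMI1 replicate 1 at 6 h (edgeR adjusted p = 0.0534). Tgtp2, a near-identical copy, held at most 7 reads a sample, and with the reads of both copies summed the changes were 0.89 and -1.36 (edgeR adjusted p = 0.0153 and 0.00394).

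Gbp7, a guanylate-binding protein whose promoter stretch is printed above, stood at 0.583, 0.615 and 0.789 CPM in vehicle at 6 h and at 1.35, 1.19 and 0.977 CPM with TWEAK. With NIK SMI1 it was at 0.751, 0.918 and 0.443 CPM, below every TWEAK sample. TWEAK raised it by 0.80 ± 0.25 on the log2 scale (edgeR adjusted p = 0.0182), a call that was lost without any 1 of vehicle replicates 1 and 2 and TWEAK replicates 1 and 2 at 6 h (adjusted p of 0.0538 to 0.0721). The change with the inhibitor, -0.69 ± 0.27, did not pass the threshold (edgeR adjusted p = 0.109).

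Across the 8 genes, NIK SMI1 lowered 2 at 6 h (Gbp8 and Tgtp1), where 5.7% of all genes fell, and raised none by edgeR or DESeq2, where 5.34% rose, with 1 at an unadjusted p under 0.05 (Igtp). Both were also over 1.5-fold lower, which held for 1.1% of all genes tested. The remaining 5 genes did not pass the test for TWEAK or for NIK SMI1 at 6 h. Gbp2, one of the interferon-gamma responsive members, was at 0.583 ± 0.146 CPM in vehicle and 0.847 ± 0.362 CPM with TWEAK (SD, n = 3), and Gbp9 at 2.32 ± 0.531 and 2.87 ± 0.435 CPM. Igtp was at 6.46 ± 0.513 CPM in vehicle and 5.48 ± 0.189 CPM with TWEAK, a log2 change of -0.23 ± 0.10 that did not pass (edgeR adjusted p = 0.116). Irgm1 was at 143 ± 4.17 and 144 ± 4.91 CPM and Irgm2 at 11.8 ± 0.998 and 10.7 ± 0.695 CPM.

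**Figure D2:**
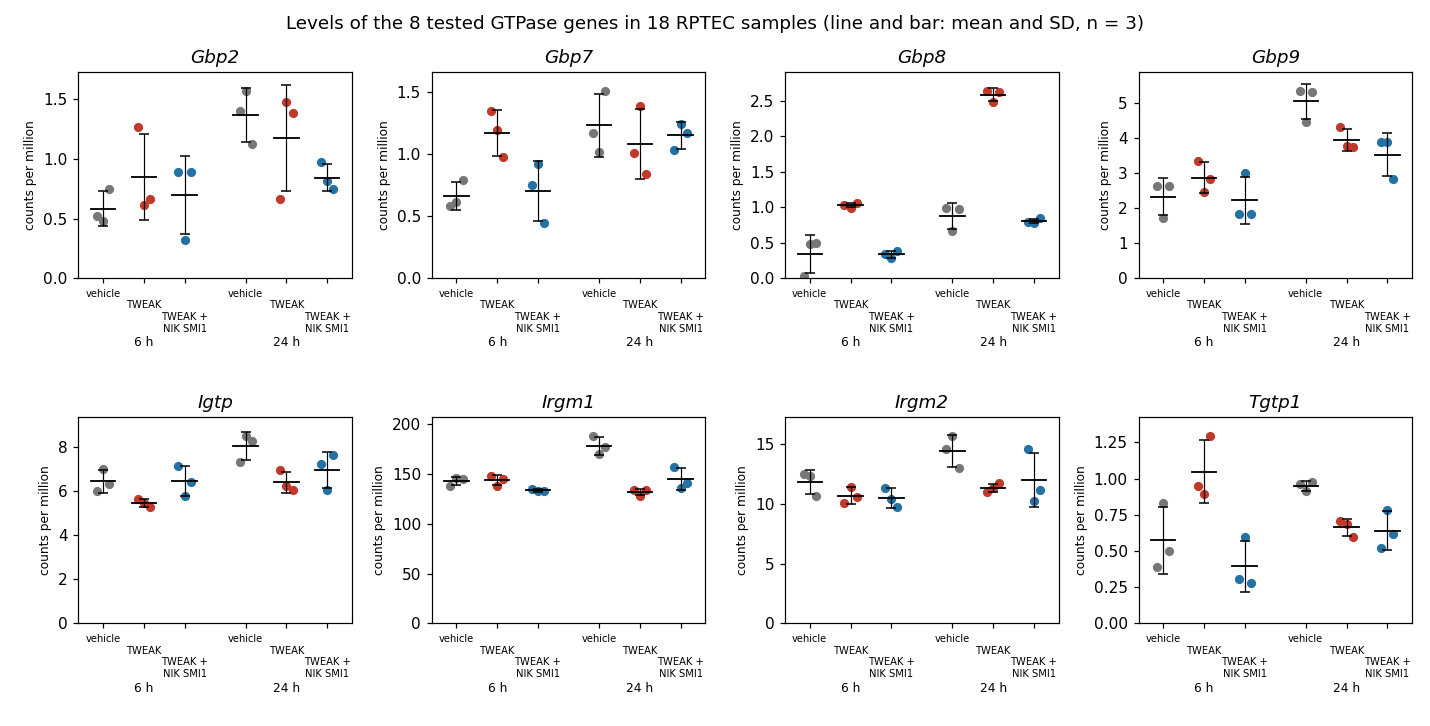
CPM of the 8 tested genes in each sample (points), with the mean and SD of each group of 3 (line and bar), and axes that start at 0. In the Gbp8 panel the TWEAK samples lie above the other groups at both times, and in the Irgm1 panel the 3 vehicle samples at 24 h, at 170 to 188 CPM, lie above all other samples.

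At 24 h the regulators of the Irgm group were lower with TWEAK while Gbp8 was higher. TWEAK lowered 3 of the 8 tested genes (Irgm1, Irgm2 and Igtp), where 20.7% of all genes tested fell, and raised 1 (Gbp8), where 18.3% rose. Past a 2-fold rise, which held for 2.34% of all genes at 24 h and for 1.75% at 6 h, Gbp8 was the single member at either time. The median log2 change of the 8 genes was -0.33, against -0.0055 over all genes.

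Irgm1, the regulator that keeps effector GTPases off the cell's own membranes, gave the most precise of these values, with 2386 to 8031 reads a sample. It was at 188, 170 and 177 CPM in vehicle at 24 h, at 134, 128 and 134 CPM with TWEAK, and at 157, 136 and 140 CPM with TWEAK and NIK SMI1. These 3 groups did not overlap. The log2 change with TWEAK was -0.44 ± 0.044 (edgeR adjusted p = 4.79e-09), which is 1.36-fold lower. It was -0.42 with TWEAK at 24 h reduced to replicate 1 and -0.49 with replicate 2, past the threshold in both. With the inhibitor Irgm1 was 0.13 ± 0.044 higher than with TWEAK alone on the log2 scale (edgeR adjusted p = 0.0395). This second call was lost without TWEAK replicate 1, 2 or 3 or NIK SMI1 replicate 1 at 24 h, and the value without the last of these was 0.07. It was also lost with TWEAK at 24 h as replicate 1 alone (0.10, edgeR adjusted p = 0.415) or replicate 2 alone (0.18, edgeR adjusted p = 0.0878).

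Irgm2, which acts beside Irgm1, was at 14.6, 15.7 and 13 CPM in vehicle at 24 h and at 11, 11.3 and 11.7 CPM with TWEAK, a log2 change of -0.34 ± 0.10 (edgeR adjusted p = 0.00912). Igtp, the third of these regulators, was at 7.32, 8.52 and 8.3 CPM in vehicle and 6.96, 6.25 and 6.05 CPM with TWEAK, a change of -0.32 ± 0.11 (edgeR adjusted p = 0.016). Vehicle and TWEAK samples did not overlap for either gene. The Igtp call was lost without any 1 of vehicle or TWEAK replicates 2 and 3 at 24 h (edgeR adjusted p of 0.0531 to 0.0687). With a single TWEAK sample at 24 h the changes were -0.39 and -0.36 for Irgm2 and -0.19 and -0.36 for Igtp (replicate 1 and replicate 2), and none of these 4 passed (edgeR adjusted p from 0.0713 to 0.45). Both genes spread with NIK SMI1, to 14.6, 10.3 and 11.2 CPM for Irgm2 and 7.24, 6.06 and 7.64 CPM for Igtp, which overlapped the TWEAK samples of each gene.

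Every TWEAK sample lay below every vehicle sample for 5 of the 8 genes at 24 h, where 25.6% of all genes tested did so. Besides the 3 that passed the test these were Gbp9, at 5.36, 4.46 and 5.32 CPM in vehicle and 4.32, 3.79 and 3.75 CPM with TWEAK (log2 change -0.38 ± 0.17, edgeR adjusted p = 0.0791), and Tgtp1, at 0.959, 0.913 and 0.976 CPM in vehicle and 0.705, 0.685 and 0.598 CPM with TWEAK (-0.53 ± 0.30, edgeR adjusted p = 0.171). Gbp2 was at 1.37 ± 0.227 CPM in vehicle and 1.18 ± 0.447 CPM with TWEAK, and Gbp7 at 1.23 ± 0.255 and 1.08 ± 0.283 CPM, with overlapping samples in both.

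NIK SMI1 at 24 h lowered 1 of the 8 genes against TWEAK alone (Gbp8), where 8.29% of all genes fell, and raised 1 (Irgm1), where 10.2% rose. A fall of over 1.5-fold held for 1.75% of all genes. Against vehicle, cells with TWEAK and NIK SMI1 at 24 h had 2 genes lower (Gbp9 and Irgm1), where 9.83% of all genes were, and none higher by edgeR, by DESeq2 or at an unadjusted p under 0.05, where 8.07% passed the edgeR threshold. Irgm1 was lower by a log2 change of -0.31 ± 0.044 (edgeR adjusted p = 4.94e-06). For Gbp9 the change was -0.52 ± 0.17 (edgeR adjusted p = 0.0329), a call lost without vehicle replicate 1 or 3 or NIK SMI1 replicate 3 at 24 h. The groups compared here also differed in islet transcripts, at 14.3 to 19.5 CPM in vehicle and at most 0.087 CPM with NIK SMI1. The part of these transcripts was not tested, and the fits with a reduced TWEAK group do not cover this comparison. At 6 h the same comparison gave 0 genes higher and 0 lower by edgeR and by DESeq2, where 7.23% and 6.7% of all genes passed, and 1 gene had an unadjusted p under 0.05 (Irgm1, lower).

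**Figure D3:**
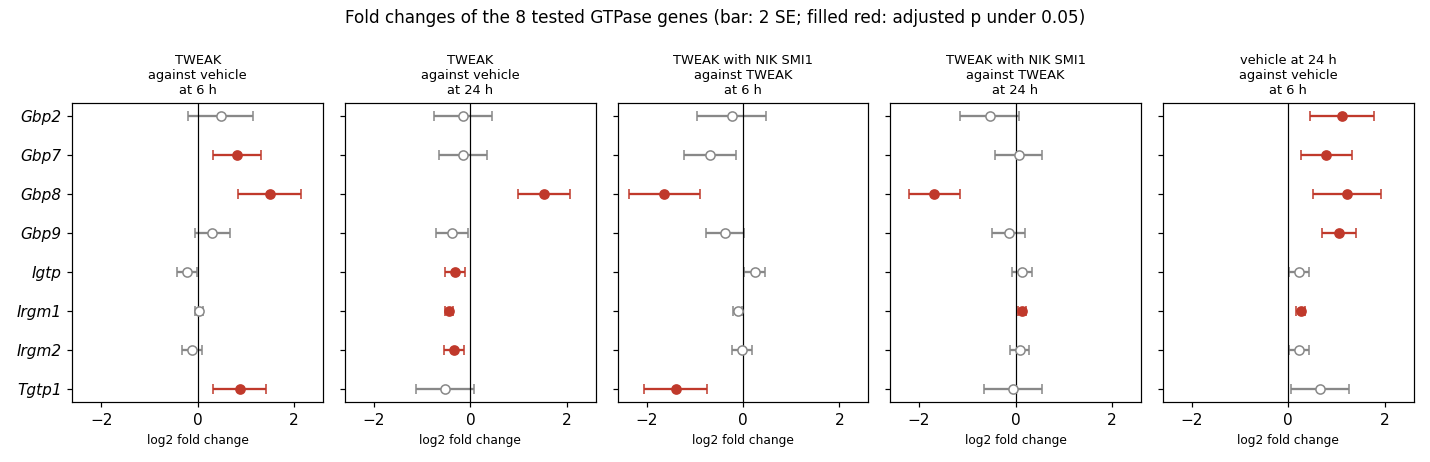
Log2 fold changes of the 8 tested genes in 5 comparisons, with bars of 2 standard errors and filled red symbols for an adjusted p under 0.05. Gbp8 lies at 1.49 and 1.52 under TWEAK and at -1.63 and -1.68 when NIK SMI1 was added, while Irgm1, Irgm2 and Igtp lie between -0.44 and -0.32 under TWEAK at 24 h.

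The effect of TWEAK itself differed between the times for 2 of the 8 genes, both in the downward direction, where 5.67% of all genes tested did so. For Irgm1 the log2 change at 24 h was lower than that at 6 h by 0.46 ± 0.062 (difference -0.46, edgeR adjusted p = 8.28e-06), and for Tgtp1 the difference was -1.40 ± 0.41 (edgeR adjusted p = 0.0292), a call lost without any 1 of 7 single samples (-1.43 to -1.21, edgeR adjusted p of 0.0542 to 0.083). No gene differed in the upward direction by edgeR, by DESeq2 or at an unadjusted p under 0.05, where 3.24% of all genes passed the edgeR threshold. The difference for Gbp8 was 0.04 ± 0.51, with 2 standard errors from -0.98 to 1.05. The effect of NIK SMI1 differed between the times for 1 gene (Irgm1, 0.24 ± 0.062 higher at 24 h, edgeR adjusted p = 0.0236), where 3.11% of all genes did so in that direction, and for 0 in the other by edgeR, by DESeq2 or at an unadjusted p under 0.05, where 1.62% of all genes passed the edgeR threshold.

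Most of the tested genes also differed between the times without any TWEAK. In vehicle, 5 of the 8 genes (Gbp2, Gbp7, Gbp8, Gbp9 and Irgm1) were higher at 24 h than at 6 h, where 15.5% of all genes tested were, and none was lower by edgeR, by DESeq2 or at an unadjusted p under 0.05, where 14.4% passed the edgeR threshold. In CPM on library totals, each of the 8 had every sample at 24 h above every sample at 6 h, which held for 31% of all genes. The separation was not examined under another scaling. For Igtp and Irgm2 the call depended on the scaling. Their rise did not pass in the main fit (edgeR adjusted p = 0.0948 and 0.0928) but passed when library totals alone were used (edgeR adjusted p = 0.0305 and 0.0283). Irgm2 also passed without NIK SMI1 replicate 1 at 24 h (edgeR adjusted p = 0.0391). Tgtp1 rose by 0.66 and did not pass (edgeR adjusted p = 0.103), but passed without vehicle replicate 2 at 6 h (edgeR adjusted p = 0.0266). Gbp9 rose from 2.32 ± 0.531 to 5.05 ± 0.504 CPM (log2 change 1.06 ± 0.18, edgeR adjusted p = 3.76e-05) and Gbp2 from 0.583 ± 0.146 to 1.37 ± 0.227 CPM (1.12 ± 0.33, edgeR adjusted p = 0.0108). Gbp8 rose by 1.21 ± 0.35, Gbp7 by 0.79 ± 0.26 and Irgm1 by 0.26 ± 0.044 on the log2 scale. Without vehicle replicate 1 at 24 h, 3 of the 5 calls were left, and Gbp7 and Gbp8 were those lost. The Gbp7 call was also lost without vehicle replicate 3 at 24 h or replicates 1 and 2 at 6 h, and the Gbp8 call when the 2 vehicle groups were fitted alone (edgeR adjusted p = 0.0665). Without the vehicle sample at 6 h that held 1 read of Gbp8 its difference was 0.80 (edgeR adjusted p = 0.0308). Time in culture and time since the vehicle was added cannot be told apart.

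The 2 genes that were not tested stayed at the edge of detection. Iigp1 had at most 2 reads in a sample and 0 reads in 14 of 18, and every sample of TWEAK at 6 h, of NIK SMI1 at 6 h and of vehicle at 24 h was at 0. Gbp3 had 0 to 11 reads a sample, or 0 to 0.263 CPM, with no group apart from the others. A difference in either gene was not detectable at this depth.

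Other rows of these families numbered 18, of which 5 were tested. Of these 5, only Irgq, a distant relative, had calls for TWEAK or NIK SMI1. TWEAK raised it by 0.12 ± 0.035 at 6 h and by 0.12 ± 0.036 at 24 h on the log2 scale (edgeR adjusted p = 0.00871 and 0.00998). NIK SMI1 changed it by -0.11 ± 0.035 at 24 h (edgeR adjusted p = 0.0321). Of all genes tested, 11.7% and 18.3% rose with TWEAK at 6 h and 24 h, and 8.29% fell with NIK SMI1 at 24 h. Gbp4, at 0.0805 ± 0.0711 CPM in vehicle and 0.259 ± 0.052 CPM with TWEAK at 6 h, gave 1.47 ± 0.65 and did not pass (edgeR adjusted p = 0.11). Gvin1, Gm12185 and 9930111J21Rik1 had no call for TWEAK or NIK SMI1 at either time. The 13 untested rows, among them Gbp5, Gbp6, Gbp10 and Tgtp2, reached at most 16 reads in a sample (Gm12250). Reads that fall in near-identical copies could not be assigned by unique alignment, so levels within the Gbp cluster and of Tgtp1 and Tgtp2 carry an error that the spread between samples does not show.

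The ligands that induce these GTPases were at or near 0. None of 11 interferon genes was tested, Ifng and 6 others had 0 reads in every sample, and Ifnb1 had 6 reads over all 18 samples. The receptors and their kinases were present and moved with TWEAK. Of 9 genes, 7 rose and 0 fell by edgeR at 6 h and at 24 h, where 11.7% and 18.3% of all genes rose, while NIK SMI1 lowered 6 at 6 h and 4 at 24 h, where 5.7% and 8.29% fell, and raised 0. Ifngr2, the signalling chain of the interferon-gamma receptor, rose by 1.01 ± 0.048 at 6 h and 0.97 ± 0.05 at 24 h on the log2 scale, and changed by -0.35 and -0.46 with NIK SMI1. Tyk2, a kinase of the type I receptor, rose by 0.67 and 0.50 and changed by -0.18 and -0.41. Ifnar1, Ifnar2, Il10rb and Ifngr1 rose by 0.15 to 0.39 at 24 h. All of these changes passed the edgeR threshold.

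Among 8 tested interferon-regulated transcription factors, TWEAK raised 2 at 6 h and 2 at 24 h, and lowered 1 and 2. Of all genes tested, 11.7% and 18.3% were higher and 12% and 20.7% lower. Irf1, a direct activator of Gbp genes, was at 71.3 CPM in vehicle and 103 CPM with TWEAK at 24 h (group means) and rose by 0.51 ± 0.048 and 0.53 ± 0.048 on the log2 scale at 6 h and 24 h. With NIK SMI1 it changed by -0.28 and -0.39. Irf2, which competes with Irf1 for its sites, rose by 0.27 at both times. Irf8, a factor best known from myeloid cells, fell to 0.593 CPM from 2.18 at 24 h (log2 change -1.92 ± 0.25) and was 1.24 ± 0.26 higher with NIK SMI1. Irf7 had a log2 change of -0.62 ± 0.25 at 24 h (edgeR adjusted p = 0.0479).

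Of 5 genes that feed back on interferon signalling, TWEAK raised 2 at 6 h and 3 at 24 h, against 11.7% and 18.3% of all genes. Socs1, an inhibitor of the receptor kinases, rose by 1.27 ± 0.13 and 1.52 ± 0.13, and changed by -0.42 and -0.86 with NIK SMI1. Socs3 rose by 0.51 and 0.82 and Ptpn2, a phosphatase that dampens interferon signalling, by 0.14 at 24 h. The NF-κB genes through which TWEAK acts moved with both agents. Nfkb2, which encodes the p100 precursor that NIK signalling processes, rose by 1.90 ± 0.037 and 1.87 ± 0.038 and changed by -0.39 and -0.55 with the inhibitor. Its partner Relb rose by 0.82 and 1.16 and changed by -0.22 and -0.58. Of 9 genes of the non-canonical branch 7 rose at each time and 1 fell at 24 h, and of 9 of the canonical branch 8 rose at each time, where 11.7% and 18.3% of all genes rose and 20.7% fell at 24 h. NIK SMI1 lowered 4 and raised 2 of the non-canonical genes at 6 h and lowered 6 and raised 1 at 24 h. Of the canonical genes it lowered 6 at 6 h and 8 at 24 h and raised 0 at both times. Of all genes, 5.7% and 8.29% fell and 5.34% and 10.2% rose with NIK SMI1. With NIK SMI1 present, Nfkb2 was still 1.52 and 1.32 and Relb 0.60 and 0.57 above vehicle on the log2 scale at 6 h and 24 h. In that comparison 7 of the 9 non-canonical genes were above vehicle at each time. Of the 9 canonical genes 8 were above vehicle at 6 h and 7 at 24 h, where 7.23% and 8.07% of all genes were.

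**Figure D4:**
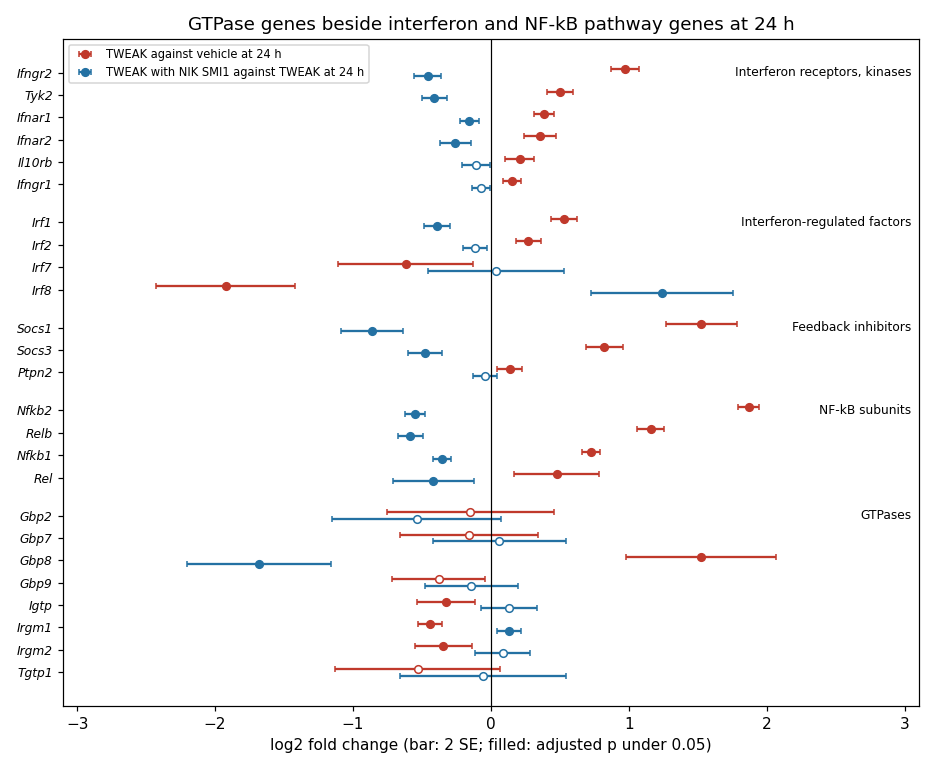
Log2 fold changes at 24 h for TWEAK against vehicle (red) and for TWEAK with NIK SMI1 against TWEAK alone (blue), with bars of 2 standard errors and filled symbols for an adjusted p under 0.05; both comparisons share the 3 TWEAK samples. Ifngr2, Irf1, Socs1, Nfkb2, Relb and Gbp8 have a rise with TWEAK and a fall with NIK SMI1, while Irgm1 has a value of -0.44 with TWEAK and 0.13 with the inhibitor.

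Partners of the GTPases were read from 2 more lists. The ATG8 conjugation machinery is needed for guanylate-binding proteins and effectors to reach vacuoles. Of its 10 genes, all tested, TWEAK raised 1 at 6 h and 5 at 24 h and lowered 1 at 24 h, where 11.7% and 18.3% of all genes rose and 20.7% fell. NIK SMI1 lowered 1 at 6 h and 3 at 24 h, where 5.7% and 8.29% of all genes fell, and raised 0 at both times. Map1lc3b, an ATG8 protein, rose by 0.23 ± 0.04 and Atg7, the activating enzyme, by 0.21 ± 0.046 at 24 h, while the ATG8 protein Gabarapl2 had a change of -0.36 ± 0.10. Atg3 and Atg16l1, further parts of the conjugation system, rose by 0.16 and 0.12. Of 8 inflammasome genes that act after guanylate-binding proteins open a vacuole, 3 were tested and 1 of them rose at each time. Casp4, the caspase that senses cytosolic lipopolysaccharide, rose by 1.37 ± 0.34 at 6 h and 1.85 ± 0.48 at 24 h and changed by -1.91 ± 0.41 with NIK SMI1 at 6 h (edgeR adjusted p = 0.00319, 0.0031 and 0.00186), from group means of 0.113 to 0.624 CPM. At 24 h its means were 0.423 CPM with TWEAK and 0.196 CPM with the inhibitor, and the difference did not pass (edgeR adjusted p = 0.0807).

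Likeness across all 18 samples was measured as Pearson's r of log2(CPM + 0.1), which is a description since the samples share treatments, times and depth. Members were left out when the nearest genes were listed. The genes nearest to Gbp8 were Arpin (r = 0.914), Hdac5 (r = 0.912) and 1700066B19Rik (r = 0.912). Of the other members, Gbp7 had the highest r with Gbp8 (0.588), at rank 2219 among all genes tested. Nearest to Irgm1 were Ephx1 (r = 0.955), Rab11fip4 (r = 0.923) and Igfbp4 (r = 0.906). Nearest to Irgm2 were Trim14 (r = 0.845), Pgm5 (r = 0.84) and Trim25 (r = 0.824). Gbp9 was closest to Ranbp6 (r = 0.887), Glrb (r = 0.884) and Siae (r = 0.881), and Tgtp1 to Fgf1 (r = 0.773), Prdx3 (r = 0.762) and Kcnh2 (r = 0.752). Within the family, the pairs with the highest r were Irgm1 and Irgm2 (0.746), Gbp7 and Gbp9 (0.717), Gbp7 and Tgtp1 (0.675) and Igtp and Irgm2 (0.67), while Gbp9 and Irgm1 had an r of 0.557 and Gbp8 and Irgm1 of 0.0133. Many genes outside the family had a higher r with most of these members. Among all genes tested, Irgm2 ranked 286 for Irgm1, and Irgm1 ranked 114 for Irgm2. Gbp9 ranked 42 for Gbp7 and Gbp7 1003 for Gbp9. Tgtp1 ranked 114 for Gbp7 and Gbp7 16 for Tgtp1. Irgm2 ranked 1136 for Igtp and Igtp 540 for Irgm2.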

How the data were processed

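RNA of the 18 cultures was sequenced from TruSeq libraries. The authors used GSNAP and NCBI build 37 of mouse, and deposited, per sample and Entrez gene, the count of uniquely aligned exonic reads, the exonic width and an RPKM value. The labels and the methods differ on sequencer, read length and RNA input, and neither version was preferred here. Symbols came from a RefSeq table of GRCm38.p6, so no gene coordinates are printed apart from those of the promoter stretches, which are in GRCm38.p6.

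Counts were fitted for all 18 samples as 6 groups in edgeR 4.0.16 (R 4.3.3) with TMM scaling and the quasi-likelihood test, for genes with more than 10 reads in at least 4 samples. A gene was called at a Benjamini-Hochberg adjusted p under 0.05 over all genes tested. Group levels are CPM on library totals and levels between genes are the deposited RPKM values. Alternatives were DESeq2 1.42.0, DESeq2 size factors, library totals without TMM, no filter and filterByExpr, only the groups compared, and each sample left out. Summing Tgtp1 with Tgtp2, and TWEAK at 24 h as replicate 1 or 2 alone, were chosen after seeing the data. Fits with 1 sample in a group assume that it varies like the others. The members, gene lists and marker lists were chosen with earlier results of these data known. Named genes were all members, the tested relatives and up to 6 called genes a list by size of the TWEAK change at 24 h. Irf1, Nfkb2 and Relb were named in any case. The 3 genes outside the member list most like each member in log2 CPM over all samples were also named. Those of 5 members are printed. For the interferon-regulated transcription factors, 1 listed gene is not reported here and is left out of the counts.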

Additional observations from a re-analysis of the deposited data

Results flagged for a closer look

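For 2 genes the effect of TWEAK differed between 6 h and 24 h by the edgeR test of the difference between the log2 changes, and for 1 gene the effect of NIK SMI1 did. The TWEAK change of Irgm1 at 24 h minus that at 6 h was -0.458, with a value of 0.02 at 6 h and of -0.44 at 24 h, and this call was kept under all 26 alternatives. For Tgtp1 the same difference was -1.40, from 0.87 at 6 h and -0.53 at 24 h, and 18 of 27 alternatives kept the call. The NIK SMI1 change of Irgm1 at 24 h minus that at 6 h was 0.241, from -0.11 and 0.13, and 20 of 26 alternatives kept the call. The vehicle samples at 24 h were above those at 6 h for both genes, and the TWEAK samples at 24 h differ among themselves in islet transcripts (13.2, 0.214 and 4.18 CPM). With TWEAK at 24 h as replicate 1 or replicate 2 alone, the Irgm1 difference for TWEAK stayed past the threshold, and the other differences did not pass.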

How the results depend on the processing

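No paired analysis was possible because the labels carry no replicate numbers. Of the log2 changes of single genes under all alternatives, 1706 kept direction and side of the threshold, 47 lost the threshold, 11 gained it and 37 changed sign, each of the last for a gene that was not called. No change of normalization, filter or tool moved a count of called genes by over 1.5 times. With TWEAK at 24 h as replicate 1 or replicate 2 alone, the genes lower with TWEAK at 24 h went from 3 to 1 in both, those higher with NIK SMI1 at 24 h from 1 to 0, those with a lower TWEAK effect at 24 h than at 6 h from 2 to 1 and those with a higher NIK SMI1 effect from 1 to 0. Fewer samples enter these fits. Leaving out 1 sample gave 1 to 3 genes higher with TWEAK at 6 h, 1 to 2 lower and 0 to 1 higher with NIK SMI1 at 6 h and 24 h respectively, 1 to 3 lower than vehicle at 24 h with both agents, 3 to 6 higher in vehicle at 24 h than at 6 h, and 1 to 2 and 0 to 1 genes in the differences between times. Values that changed sign were close to 0 for their error. With replicate 2 alone these were Gbp2 (0.10) and Gbp7 (0.18) for TWEAK at 24 h, Gbp7 (-0.28) for NIK SMI1 at 24 h, and Gbp8 (-0.0289 and 0.0145) for the TWEAK and NIK SMI1 differences between times. With replicate 1 alone they were Gbp2 (0.36) and Igtp (-0.0051) for NIK SMI1 at 24 h, Igtp (0.0345) for the TWEAK difference and Gbp2 (0.60) for the NIK SMI1 difference. Leaving out 1 sample changed signs in these ranges. For TWEAK at 24 h the range was Gbp2 -0.32 to 0.0614 and Gbp7 -0.43 to 0.017. For NIK SMI1 at 6 h the range was Gbp2 -0.55 to 0.13 and Irgm2 -0.095 to 0.0300. For NIK SMI1 at 24 h the range was Gbp7 -0.12 to 0.33, Irgm2 -0.0883 to 0.18 and Tgtp1 -0.23 to 0.0972. For both agents against vehicle at 6 h the range was Gbp2 -0.0781 to 0.57, Gbp7 -0.075 to 0.30, Gbp8 -0.56 to 0.26, Gbp9 -0.34 to 0.0937 and Igtp -0.0853 to 0.0908. For both agents against vehicle at 24 h the range was Gbp7 -0.19 to 0.039. For the TWEAK difference the range was Gbp8 -0.37 to 0.45. For the NIK SMI1 difference the range was Gbp2 -0.67 to 0.0129, Gbp8 -0.15 to 0.0301 and Irgm2 -0.0658 to 0.20. Depth limits the Gbp genes and Tgtp1, with medians of 24 to 36 reads a sample for Gbp2, Gbp7, Gbp8 and Tgtp1, and leaves Gbp3 and Iigp1 untested.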
